A study of Mus musculus with 4 samples.

Results

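Chromatin modifiers and remodellers are the enzymes and subunits that write, erase and read marks on histones and DNA, or that move nucleosomes. They were chosen by gene symbol from RNA-seq of sorted mouse alveolar epithelial type II (AT2) cells: the lysine demethylases (Kdm), H3K4 methyltransferases (Kmt2, Setd1), other Setd proteins, Ehmt and Suv39h proteins, PRC2 subunits, Kat acetyltransferases, histone deacetylases, sirtuins, Smarc and Arid subunits, Chd remodellers, Dnmt and Tet enzymes, Phf12 and Adnp. The rule gave 100 rows of the 22565 genes in the deposited table, under 99 symbols, since Hdac4 stands on 2 rows. Of these, 95 passed the filter of at least 1 FPKM (fragments per kilobase of transcript, scaled to library size) in at least 2 of the 4 libraries, which 11055 genes of the table passed. Dnmt3l, Chd5, Suv39h2, Smarca1 and Kdm4d did not pass it, and Setd4 passed through the KO libraries alone.

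The KO group holds 2 libraries of AT2 cells from mice that the protocol names Fbxo45-cKO. The WT group holds 2 libraries of AT2 cells from wild-type mice. All mice were 6 months old and untreated, and the cells came from lung by flow cytometry. The KO libraries are named KO in their titles, but their labelled genotype is Fbxo45 for KO replicate 1 and Fbxo46 for KO replicate 2. The driver of the deletion and the number of mice behind a library are not given in the labels, so the spread behind each p-value is that between libraries and can be technical. Fbxo45, a substrate receptor of an E3 ubiquitin ligase, was at 4.41 and 7.58 FPKM in KO and 4.6 and 5.91 FPKM in WT (log2 difference 0.13, limma adjusted p = 0.983), so its level did not separate the groups.

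As background, DNA in the nucleus is wound on histones, and the marks on histone tails and on cytosines set how open a gene's chromatin is. Acetyltransferases, H3K4 methyltransferases and Tet enzymes are linked to active promoters and enhancers. Deacetylases, Polycomb repressive complex 2 (PRC2), H3K9 methyltransferases and DNA methyltransferases are linked to silencing. AT2 cells make lung surfactant and renew the alveolar epithelium, and both tasks depend on cell-type gene programmes that such enzymes help to keep.

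Library size ran from 4167116 to 9507432 fragments, which puts a count of 3 fragments at 0.316 to 0.72 CPM (fragment counts scaled to a common library size). AT2 markers led every library, with a summed level of 82294 and 116910 FPKM in KO and 130816 and 124525 FPKM in WT, and the 6 T and NK cell markers found were at 0 in all 4. Summed levels were 1049 and 654 FPKM in KO and 815 and 675 FPKM in WT for AT1 markers, and 1137 and 812 FPKM in KO and 1325 and 897 FPKM in WT for club cell markers. Those of ciliated, macrophage, neutrophil, B, endothelial, stromal and erythroid markers did not exceed 48.1 FPKM in any library. KO replicate 1 carried fast skeletal muscle transcripts, whose 10 markers summed to 1239 FPKM there, against 11.6 FPKM in KO replicate 2 and 1.45 and 10.6 FPKM in WT. Their part in the values below was not tested.

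Adnp was the only chromatin gene that any fit over the 4 libraries called at an adjusted p under 0.05. Adnp is a zinc finger and homeodomain protein that forms a repressive complex with Chd4 and HP1 proteins. Its row (ENSMUSG00000051149, GRCm38 chr2:168180986-168207112, minus strand) held 298 and 267 fragments in KO and 398 and 785 fragments in WT. As CPM this came to 31.4 and 37.8 CPM in KO, against 95.4 and 95.7 CPM in WT. Both KO libraries lay below both WT libraries and the groups did not overlap. DESeq2 gave a log2 difference of -1.47 with an adjusted p of 0.00119, so Adnp fell in this test. edgeR gave the same difference of -1.47 with an unadjusted p of 0.000305 and an adjusted p of 0.894. The FPKM column of the same row read 7.84 and 18.6 in KO and 20.1 and 19.6 in WT, so there KO replicate 2 stood close to WT (log2 difference -0.66, SE 0.394, limma adjusted p = 0.948).

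A row that overlaps Adnp had a higher CPM in KO than in WT. Gm20716 (ENSMUSG00000093752) is annotated in GENCODE M21 as a read-through gene that starts at Dpm1, a subunit of dolichol-phosphate mannose synthase, and runs into Adnp on the same strand. It held 1692 and 1182 fragments in KO and 427 and 840 fragments in WT, or 178 and 167 CPM in KO and 102 and 102 CPM in WT. Its log2 difference was 0.75 in edgeR (unadjusted p = 0.00404, adjusted p = 0.999) and 0.71 on the FPKM scale (limma adjusted p = 0.948). The rows summed to 209 and 205 CPM in KO and 198 and 198 CPM in WT. Adnp took 15% of the summed fragments in KO replicate 1 (95% Clopper-Pearson interval 13.4 to 16.6%) and 18.4% in KO replicate 2 (16.5 to 20.5%). It took 48.2% in WT replicate 1 (44.8 to 51.7%) and 48.3% in WT replicate 2 (45.9 to 50.8%). These intervals cover counting error only, with each fragment taken as assigned to its row with certainty. The deposited counts are estimates and most Adnp sequence occurs in Gm20716 too, so the intervals understate the uncertainty of the division. With the rows summed, a step chosen after the data were examined, the log2 difference was 0.06 in DESeq2 (adjusted p = 1), 0.06 in edgeR (adjusted p = 0.999) and 0.15 on the FPKM scale (limma adjusted p = 0.97). Between KO and WT the division of fragments between the rows differed, while the summed CPM of the 4 libraries lay within 198 to 209. The summed FPKM was 35.2 and 46.7 in KO and 36.6 and 36.1 in WT, so on that scale KO replicate 2 stood apart. How the authors' software divides such fragments was not tested.

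The annotation gives little sequence by which to tell these rows apart, and the stretches that do so are shown here. Transcript Adnp-202 has 4 exons and 4932 bases, and Gm20716-201 has 12 exons and 5288 bases. The last 3 exons, with 4393 bases and the Adnp protein-coding start, are the same in both, which is 89.1% of Adnp-202. What is left to Adnp-202 is its 539-base first exon, and what is left to Gm20716-201 is 895 bases in 9 exons of the Dpm1 locus. Of all Adnp sequence, 84.2% of stretches of 100 bases occur in Gm20716 too. The junctions below hold the last 15 private bases in lower case and, in capitals, the first 15 bases of the shared exon at GRCm38 chr2:168189282-168189394, minus strand, read from GENCODE M21 transcripts.
Adnp-202 junction: cgaggccgagccaagAAACTATGTTCCAAC
Gm20716-201 junction: acacatgagccaaagAAACTATGTTCCAAC
A read across either junction matches 1 of these models, and a read within the shared exons matches both. The models also start at separate promoters, shown from 250 bases before to 50 bases after the start as RefSeq gives it on GRCm38.p6, with CpG dinucleotides in capitals. The Adnp window lies at chr2:168207063-168207362 and the Dpm1 window at chr2:168230330-168230629, both on the minus strand.
Adnp promoter: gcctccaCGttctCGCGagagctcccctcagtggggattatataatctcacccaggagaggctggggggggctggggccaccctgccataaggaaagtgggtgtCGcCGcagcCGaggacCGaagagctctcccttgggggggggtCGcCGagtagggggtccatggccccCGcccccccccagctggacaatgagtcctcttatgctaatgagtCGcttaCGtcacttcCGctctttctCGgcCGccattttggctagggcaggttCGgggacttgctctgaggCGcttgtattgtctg
Dpm1 promoter: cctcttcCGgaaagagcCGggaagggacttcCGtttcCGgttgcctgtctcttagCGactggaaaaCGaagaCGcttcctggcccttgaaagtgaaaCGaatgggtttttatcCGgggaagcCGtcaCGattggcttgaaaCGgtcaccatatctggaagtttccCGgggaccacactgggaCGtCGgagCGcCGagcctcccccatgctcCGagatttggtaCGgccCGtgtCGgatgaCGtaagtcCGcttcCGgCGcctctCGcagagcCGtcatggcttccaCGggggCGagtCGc
The Adnp window holds 17 CpG dinucleotides at 0.578 of the number its base composition would give, and the Dpm1 window holds 30 at a ratio of 1.11. A ratio of 0.6 or more was found in 83.8% of the 80 chromatin gene windows matched and in 75.8% of windows of tested genes. Dpm1 itself was at 11.1 and 17.8 CPM in KO and 14.9 and 14.8 CPM in WT, with overlapping groups (edgeR log2 difference -0.05).

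**Figure D1:**
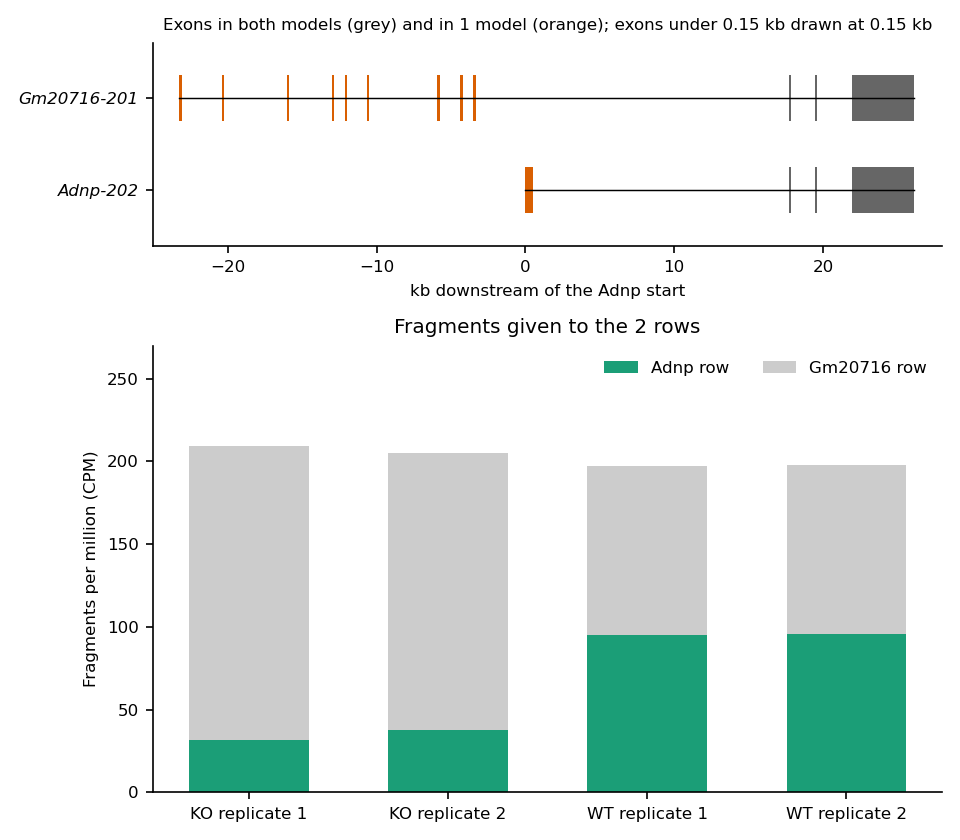
Top, exons of Adnp-202 and Gm20716-201 by distance in kb downstream of the Adnp start, grey where both models hold the exon and orange where 1 does. Bottom, stacked CPM given to the Adnp row and the Gm20716 row in each library; the bars end at 209 and 205 CPM in KO and at 198 and 198 CPM in WT, while the Adnp part is 31.4 and 37.8 CPM in KO and 95.4 and 95.7 CPM in WT.

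Among the remaining chromatin genes no difference passed an adjusted p under 0.05. limma on log2(FPKM + 1) called 0 of the 95 tested, against 0% of the 11055 genes tested, and edgeR called 0 of 95, against 0% of 11705 genes. DESeq2 called Adnp alone of 99, against 0.0457% of 15326 genes. At an unadjusted limma p under 0.05 there were 5 chromatin genes, or 5.26%, against 4.84% of all tested genes, a share near the background. Chd1, Hdac2, Phf12 and Smarcd2 were the 4 on the higher side (2.68% of all genes) and Hdac5 the 1 on the lower side (2.16%). edgeR gave 4 at an unadjusted p under 0.05 (3.18% of all genes), of which Chd1 and Hdac10 were on the higher side (1.14%) and Adnp and Smarcd1 on the lower (2.04%). DESeq2 gave 2 (1.82% of all genes), Chd1 on the higher side (0.913%) and Adnp on the lower (0.907%). Chd1 was thus the 1 chromatin gene below this unadjusted limit in all 3 tests. These tests read the same libraries, so they are not independent. The share of all genes below the limit in all 3 was not counted. On simulated counts of this comparison, limma recovered 10.6% of genes changed by 2-fold, 70.8% by 4-fold and 95.5% by 8-fold among 11095 genes. edgeR recovered 13.6%, 83.3% and 100% among 11730. The simulation gave all genes in both groups the same dispersion, or spread between libraries (0.0718), and each gene a fixed length. In the real data the KO libraries lay farther apart than the WT libraries. Their median absolute log2 difference over all tested genes was 0.409, against 0.184 in WT, so recovery in these data can be lower.

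In direction, 55 of the 95 were above 0 and 40 below in KO minus WT (57.9% above, against 54.1% of all tested genes). The median log2 difference was 0.074, beside 0.035 over all tested genes. The direction rested on KO replicate 1: without it 43 were above 0 and the median was -0.028, and without KO replicate 2 60 were above 0 and the median was 0.176. Both KO libraries stood above both WT libraries for 26 genes (27.4%, against 20% of all) and below for 14 (14.7%, against 15.1%). In CPM the counts were 14 above (16.5% of all genes) and 12 below (16.9%).

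**Figure D2:**
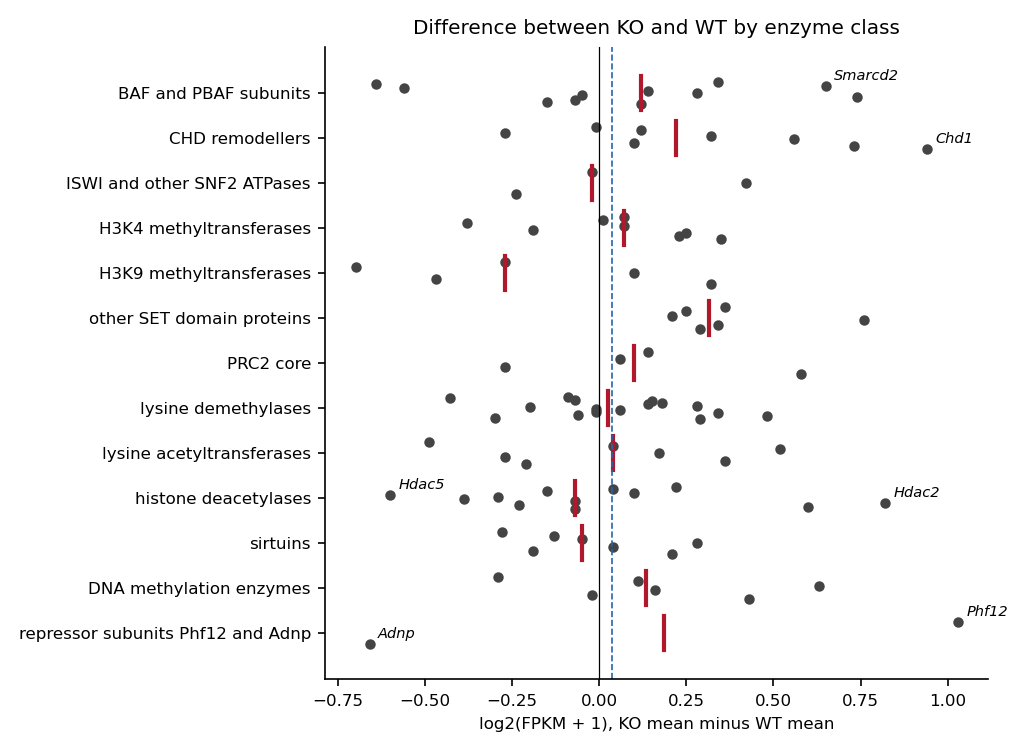
Difference in log2(FPKM + 1), KO mean minus WT mean, for the 95 tested chromatin genes (points) by enzyme class; red bars are class medians, the solid line is 0 and the dashed line the median of all tested genes at 0.035. Phf12 at 1.03, Chd1 at 0.94 and Hdac2 at 0.82 lie farthest right, and Adnp at -0.66 and Hdac5 at -0.60 are named on the left. Setdb2 at -0.7, the lowest of all, and Smarcd3 at -0.64 lie on the left without a name.

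BAF and PBAF complexes slide and evict nucleosomes with a Smarca2-type ATPase and shared core subunits. Of their 11 subunits under Smarc and Arid names, 6 were higher and 5 lower in KO (median log2 difference 0.12). Smarca2, an ATPase of the complex, was at 71.5 and 35.7 FPKM in KO and 30.1 and 29.7 FPKM in WT (log2 difference 0.74, limma adjusted p = 0.948), and KO replicate 1 set most of that distance. In CPM it was at 152 and 73 in KO and 96.7 and 89 in WT, with KO replicate 2 the lowest (edgeR log2 difference 0.27, adjusted p = 0.999). The 3 Smarcd paralogues, of which a complex takes 1, did not move together. Smarcd2 was at 33.2 and 29.8 FPKM in KO and 19.9 and 19.4 FPKM in WT, with no overlap (log2 difference 0.65, SE 0.202, limma adjusted p = 0.948). Its CPM of 51.9 and 66.7 in KO and 56.9 and 53 in WT overlapped. Smarcd1 was at 5.17 and 4.8 FPKM in KO and 8.46 and 7.2 FPKM in WT, lower in both KO libraries on both scales (log2 difference -0.56 on FPKM, -0.64 in edgeR with adjusted p = 0.999). Smarcd3 was at 3.37 and 0.95 FPKM in KO and 3.17 and 3.95 FPKM in WT, and KO replicate 2 held 3 fragments of it. Per length, Smarcd2 was the highest of the 3 in every library. Smarcd1 and Smarcd3 share 12.7% and 50.1% of their exon bases with genes on the other strand, and whether strand was used in counting is not stated in the labels. Arid1a, the DNA-binding subunit of canonical BAF, was at 50.5 and 32.1 FPKM in KO and 40.6 and 33.8 FPKM in WT, so the groups overlapped.

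Chd proteins are chromodomain ATPases, and Chd3 and Chd4 are the remodelling subunits of NuRD, a complex that joins nucleosome movement to deacetylation. Of 8 tested, 6 were higher in KO and 4 had both KO libraries above both WT libraries on FPKM, as 20% of all tested genes did, namely Chd1, Chd2, Chd4 and Chd6. In CPM 1 of these 4, Chd1, did so (16.5% of all genes). Chd1, which spaces nucleosomes over transcribed genes, was at 44.2 and 21 FPKM in KO and 15.7 and 15.1 FPKM in WT (log2 difference 0.94, SE 0.363, limma adjusted p = 0.948). In fragments it was at 200 and 124 CPM in KO and 101 and 105 CPM in WT (edgeR log2 difference 0.64, adjusted p = 0.999). The groups did not overlap on either scale, and KO replicate 1 was the higher KO library on both. Chd2 was at 43 and 24.4 FPKM in KO and 19.3 and 19 FPKM in WT, but its 250 and 180 CPM in KO overlapped the 183 and 158 CPM in WT. Chd4 was at 85.9 and 53.5 FPKM in KO and 44 and 47.7 FPKM in WT, and Chd3 at 75.7 and 51.4 FPKM in KO and 58.9 and 57.1 FPKM in WT. Chd7 spread farthest of the class between the KO libraries, at 17.1 and 3.25 FPKM, against 10.4 and 8.87 FPKM in WT. Chd5, known mainly from neurons, did not exceed 0.131 FPKM in any library.

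The ISWI ATPases slide and space nucleosomes, and 3 of the 4 ISWI and other SNF2 genes were tested. Smarca5, an ISWI ATPase, was at 14.8 and 23.6 FPKM in KO and 22 and 22.7 FPKM in WT, so its groups overlapped, and its difference was below 0 on FPKM (-0.24) and above 0 in edgeR (0.15). Its paralogue Smarca1 did not exceed 0.211 FPKM in any library. Smarcad1, which acts in heterochromatin upkeep, was at 7.78 and 11.6 FPKM in KO and 6.32 and 7.48 FPKM in WT (log2 difference 0.42, limma adjusted p = 0.948). On the FPKM scale none of these 3 was higher in KO replicate 1 than in KO replicate 2, and in CPM 1 was.

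H3K4 methyltransferases mark promoters and enhancers. Of the 8, 6 were higher and 2 lower in KO (median log2 difference 0.07), and all 8 were higher in KO replicate 1 than in KO replicate 2. Kmt2e, a family member with no clear methyltransferase activity of its own, had the highest mean level, at 48.2 and 24.9 FPKM in KO and 36.8 and 29.4 FPKM in WT, with KO replicate 1 above and KO replicate 2 below both WT libraries. Kmt2c, which with Kmt2d marks enhancers, was at 34.1 and 30 FPKM in KO and 28.1 and 25.5 FPKM in WT. Kmt2d was at 29.7 and 20.6 FPKM in KO and 28.7 and 28.2 FPKM in WT. Setd1a, the catalytic subunit of a COMPASS complex, was at 13.1 and 10.2 FPKM in KO and 16.6 and 14.2 FPKM in WT (log2 difference -0.38, limma adjusted p = 0.948). It was the 1 gene of the 8 with both KO libraries below both WT libraries on FPKM, as 15.1% of all tested genes were. In CPM its groups overlapped, at 84.4 and 57.6 in KO and 87.4 and 75.9 in WT. It shares 51.9% of its sequence with other annotated genes, none of them a row of the deposited table. How reads of such stretches were counted is not stated, so its level is uncertain. Chd2 (23.2%) and Smarca5 (19.3%) share sequence in the same way to a lesser degree.

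H3K9 methyltransferases build silent chromatin. Of 5 tested, 2 were higher and 3 lower in KO. Ehmt1 and Ehmt2 act as a heterodimer, and their differences had opposite signs on FPKM and the same sign in edgeR (-0.03 for Ehmt1 and -0.50 for Ehmt2). Ehmt1 was at 47.5 and 39.3 FPKM in KO and 33.4 and 35.4 FPKM in WT (log2 difference 0.32, limma adjusted p = 0.948). Its fragments showed no such distance, at 98.9 and 78.8 CPM in KO and 92.2 and 88.5 CPM in WT. Ehmt2 was at 31.1 and 21.9 FPKM in KO and 39.3 and 33.9 FPKM in WT (log2 difference -0.47, limma adjusted p = 0.948), and both KO libraries were below both WT libraries in CPM too. Suv39h1, which trimethylates H3K9, was at 2.59 and 4.01 FPKM in KO and 3.57 and 4.74 FPKM in WT, and its paralogue Suv39h2 did not exceed 0.118 FPKM.

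The other Setd proteins are a mixed group of SET domain enzymes with histone and non-histone substrates. All 6 had a log2 difference above 0, with a median of 0.31 on FPKM and 0.21 in edgeR, but Setd4, the largest at 0.76, passed the filter through the KO libraries alone. The other 5 ran from 0.21 to 0.36. Without KO replicate 1 the median was 0.08 and without KO replicate 2 it was 0.54, and KO replicate 2 was below the WT mean for Setd2, Setd6 and Setd8. None passed the adjusted test, in edgeR 5 of the 6 were above 0, and with equal total FPKM all 6 were. Setd3, an actin histidine methyltransferase, had the highest mean level at 66.2 and 52.6 FPKM in KO and 47.3 and 45.7 FPKM in WT (log2 difference 0.34, SE 0.209, limma adjusted p = 0.948). Its 173 and 147 CPM in KO also stood above 129 and 130 CPM in WT. Setd5 was at 45.9 and 50.5 FPKM in KO and 42.7 and 40.3 FPKM in WT, but its CPM ran from 214 to 221 in all 4 libraries. Setd2, the enzyme that trimethylates H3K36, was at 42.9 and 28 FPKM in KO and 28.2 and 28.2 FPKM in WT. Setd4 was at 1.13 and 3.23 FPKM in KO and 0.838 and 0.699 FPKM in WT.

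PRC2 trimethylates H3K27 through Ezh1 or Ezh2, with Eed and Suz12 as core partners. Per length Ezh1, which is typical of cells that have stopped dividing, stood above Ezh2 in every library. Ezh1 was at 12.8 and 11.8 FPKM in KO and 15.8 and 14.3 FPKM in WT, lower in both KO libraries (log2 difference -0.27, limma adjusted p = 0.948). Ezh2 was at 2.89 and 4.59 FPKM in KO and 3.29 and 3.68 FPKM in WT, with overlapping groups on that scale. In CPM it was at 4.31 and 4.81 in KO and 6.48 and 7.56 in WT. Both KO libraries were thus below both WT libraries in CPM, as for 16.9% of all genes. Ezh2 rested on few fragments, 41 and 34 in KO and 27 and 62 in WT. Eed was at 12.7 and 12.6 FPKM in KO and 6.42 and 10.2 FPKM in WT, higher in both KO libraries on both scales (log2 difference 0.58, limma adjusted p = 0.948). The WT libraries of Eed themselves differed by 0.60 on the log2 scale. Suz12 was at 16 and 20.3 FPKM in KO and 12.9 and 20.4 FPKM in WT.

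Lysine demethylases remove the methyl marks above. Of 16 tested, 8 were higher and 8 lower in KO, with a median log2 difference of 0.03 beside 0.035 over all tested genes. Kdm2a, an H3K36 demethylase with a CpG-binding domain, had the highest mean level, at 72.5 and 32.1 FPKM in KO and 30.2 and 39.3 FPKM in WT. KO replicate 1 stood alone on the FPKM scale, while in fragments Kdm2a was at 204 and 171 CPM in KO and 196 and 183 CPM in WT. Kdm3a, an H3K9 demethylase, was at 18.1 and 19.7 FPKM in KO and 15.1 and 14.4 FPKM in WT (log2 difference 0.34, SE 0.21, limma adjusted p = 0.948), and the groups were apart in CPM as well, at 107 and 106 in KO and 85 and 81.2 in WT. Kdm5b, an H3K4 demethylase, was at 13.8 and 14.1 FPKM in KO and 12.4 and 12.8 FPKM in WT. Kdm6b, which removes H3K27 trimethylation, was at 18.4 and 9.96 FPKM in KO and 20.4 and 16.9 FPKM in WT, and the related Kdm6a was at 12.1 and 12.1 FPKM in KO and 12.7 and 12.8 FPKM in WT. Kdm8 ranged from 0.721 FPKM in KO replicate 2 to 3.35 FPKM in KO replicate 1, around the WT values of 2.04 and 1.78 FPKM.

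Acetyltransferases open chromatin by acetylating histone lysines. Of 7, 4 were higher and 3 lower in KO. Kat2b, a catalytic subunit of SAGA-type complexes, had the highest mean level, at 36.8 and 35.5 FPKM in KO and 33.7 and 23 FPKM in WT (log2 difference 0.36, limma adjusted p = 0.948). Its paralogue Kat2a was at 3.61 and 3.06 FPKM in KO and 4.22 and 3.81 FPKM in WT, so Kat2b was the higher of the pair in every library. Kat6b was at 14.7 and 18.8 FPKM in KO and 9.79 and 12.9 FPKM in WT, with no overlap on either scale (log2 difference 0.52, SE 0.257, limma adjusted p = 0.948). Kat5, the catalytic subunit of TIP60, was at 16.7 and 3.65 FPKM in KO and 9.05 and 10.9 FPKM in WT, so the KO libraries lay on either side of WT.

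Histone deacetylases reverse that acetylation. Of 12 tested rows, 5 were higher and 7 lower in KO (median log2 difference -0.07). Hdac1 and Hdac2, close paralogues in the NuRD, Sin3 and CoREST complexes, differed in pattern. Hdac2 was at 43.7 and 35.1 FPKM in KO and 19.6 and 24.2 FPKM in WT (log2 difference 0.82, SE 0.229, limma adjusted p = 0.948). Its fragments were at 58.9 and 72.2 CPM in KO and 44.6 and 54.4 CPM in WT, again apart but closer (edgeR log2 difference 0.39, adjusted p = 0.999). Hdac1 was at 24.7 and 31.9 FPKM in KO and 33.2 and 26 FPKM in WT, with overlapping groups, and it shares 23.4% of its sequence with the row Gm10093. Hdac5, a class IIa enzyme whose activity follows its shuttling between nucleus and cytoplasm, was at 26.9 and 20.1 FPKM in KO and 38.7 and 33.3 FPKM in WT. Both KO libraries were below both WT libraries on both scales (log2 difference -0.60, SE 0.235, limma adjusted p = 0.948). Hdac7, of the same class IIa, had the highest mean level of the deacetylases and was at 31.7 and 34.5 FPKM in KO and 37.7 and 35.8 FPKM in WT. Hdac10, a polyamine deacetylase, was at 4.1 and 4.23 FPKM in KO and 2.3 and 2.52 FPKM in WT (log2 difference 0.60, limma adjusted p = 0.948), and at 9.68 and 11 CPM in KO and 4.52 and 5.75 CPM in WT (edgeR log2 difference 0.98, adjusted p = 0.999). The values of Hdac10 in each group lay close together and the groups did not overlap. Both KO libraries stood above both WT libraries for 20% of all tested genes on FPKM and 16.5% in CPM. Hdac10 rested on few fragments, 92 and 78 in KO and 19 and 47 in WT.

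Sirtuins are NAD-dependent deacylases of the nucleus, cytoplasm and mitochondria. Of the 7, 3 were higher and 4 lower in KO (median log2 difference -0.05), and all 7 were higher in KO replicate 1 than in KO replicate 2. Sirt2, the mainly cytoplasmic tubulin deacetylase, had the highest mean level, at 27.6 and 12.3 FPKM in KO and 18.6 and 24.5 FPKM in WT. Sirt4, a mitochondrial member, was at 10.5 and 9.86 FPKM in KO and 8.5 and 7.96 FPKM in WT, and its 10.4 and 6.23 CPM in KO overlapped the 9.6 and 7.44 CPM in WT.

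DNA methyltransferases add and Tet enzymes oxidise 5-methylcytosine. Dnmt1, which copies methylation after replication, was at 11.8 and 7.91 FPKM in KO and 6.42 and 7.56 FPKM in WT (log2 difference 0.43, limma adjusted p = 0.948). Of the de novo enzymes, Dnmt3a was at 9.79 and 10.7 FPKM in KO and 10.8 and 10.1 FPKM in WT, and Dnmt3b was lower in every library, at 0.904 and 1.18 FPKM in KO and 0.315 and 1.54 FPKM in WT. Dnmt3l, a germ-cell cofactor, was listed at 0 in all 4 libraries. Tet1 was at 2.66 and 3.81 FPKM in KO and 1.54 and 1.88 FPKM in WT (log2 difference 0.63, SE 0.323, limma adjusted p = 0.948), while its CPM of 18.9 and 23.9 in KO and 14.2 and 19.5 in WT overlapped. Tet2 was at 11.4 and 9.86 FPKM in KO and 9.45 and 10.1 FPKM in WT. Tet3 was at 14.3 and 6.45 FPKM in KO and 11.2 and 13 FPKM in WT, above and below both WT libraries. Tet1 was thus the lowest of the 3 Tet genes in every library.

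**Figure D3:**
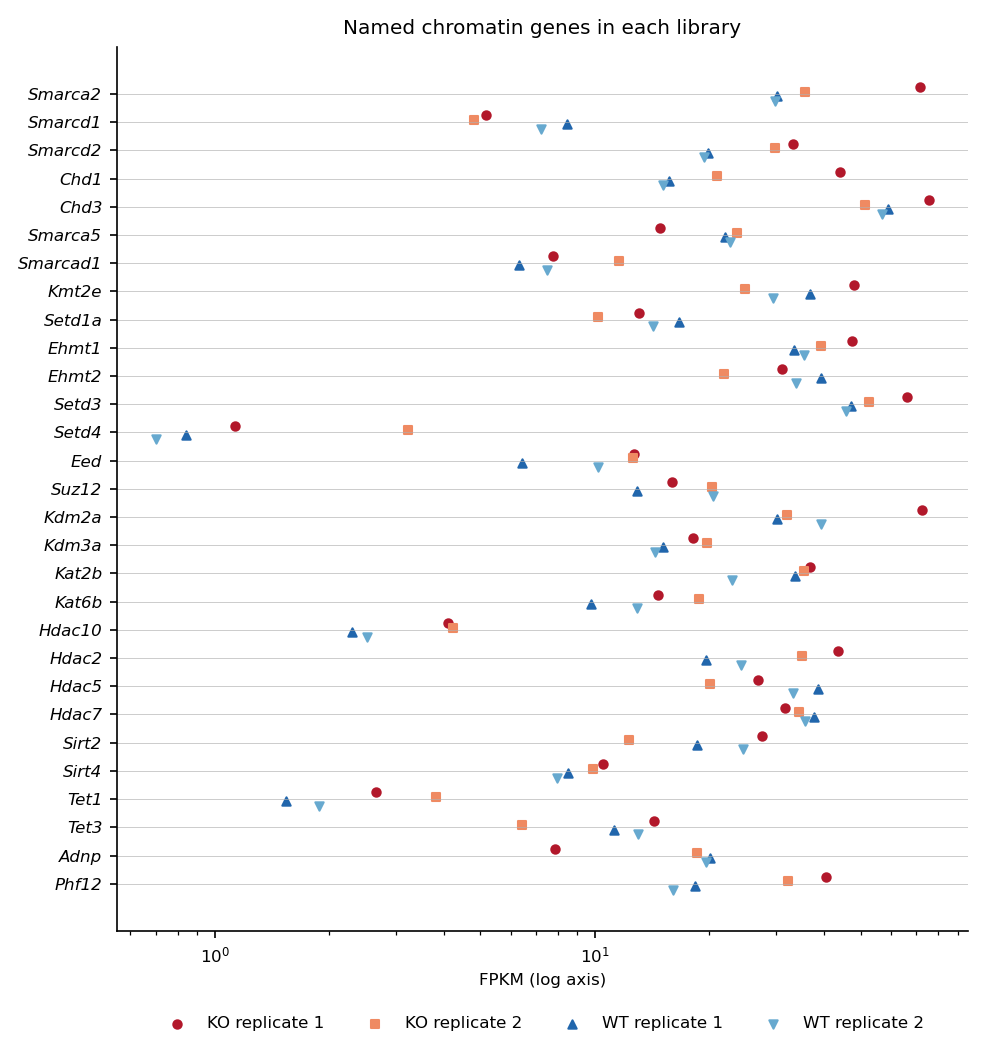
FPKM on a log axis of the 29 named chromatin genes in KO replicates 1 and 2 (red circles, orange squares) and WT replicates 1 and 2 (blue triangles up and down). Hdac10, Smarcd1 and Phf12 show both KO libraries together and apart from WT, while for Kdm2a, Smarca2, Sirt2 and Tet3 the KO libraries lie far from each other.

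Phf12 had the smallest unadjusted limma p of the set, and its columns differed from each other. Phf12, a PHD finger protein that links histone tails to the Sin3 deacetylase complex, is at chr11:77982754-78030539 on the plus strand of GRCm38. It was at 40.5 and 32.2 FPKM in KO and 18.3 and 16.1 FPKM in WT, so both KO libraries stood well above WT (log2 difference 1.03, SE 0.224, unadjusted p = 0.00379, limma adjusted p = 0.948). In fragments it was at 110 and 62 CPM in KO and 81.6 and 67.2 CPM in WT, with KO replicate 2 the lowest of the 4 (edgeR log2 difference 0.21, adjusted p = 0.999). The ratio of CPM to FPKM, here called apparent length, was 2.72 and 1.92 in KO and 4.47 and 4.18 in WT. It is a length in kb only if both columns are scaled to the same library size, which was not tested. The annotated transcripts of Phf12 run from 413 to 4410 bases. The ratio of 4.47 lies outside that range if read in kb, so the ratio is used as a relative measure only. Its Sin3 partners were not higher to that degree: of 15 tested, 11 were above and 4 below 0 with a median log2 difference of 0.18, and none had an unadjusted limma p under 0.05.

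A shorter apparent length in both KO libraries than in both WT libraries was found for 22 of 94 chromatin genes (23.4%, against 15.1% of all genes with at least 0.5 FPKM in all 4 libraries). A longer one was found for 11 (11.7%, against 5.95%). Of the 5 genes at an unadjusted limma p under 0.05, the 4 on the higher side, Chd1, Hdac2, Phf12 and Smarcd2, were among the 22, and Hdac5, on the lower side, was among the 11. For these 5 the FPKM difference was larger in size than the difference in fragments. They were chosen by their FPKM difference, and FPKM is also the divisor of the ratio. The choice itself therefore favours this pattern, and no result is drawn from it. The FPKM and edgeR log2 differences were over 0.5 apart for 5 chromatin genes, Adnp, Ezh2, Phf12, Sirt6 and Smarcd2 (5.26%, against 6.29% of all genes). No gene of the set had opposite signs with both differences over 0.5 in size (0.0275% of all genes). Ezh2 had 0.06 on the FPKM scale and -0.64 in edgeR, and Sirt6 had -0.13 on the FPKM scale and -0.65 in edgeR.

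**Figure D4:**
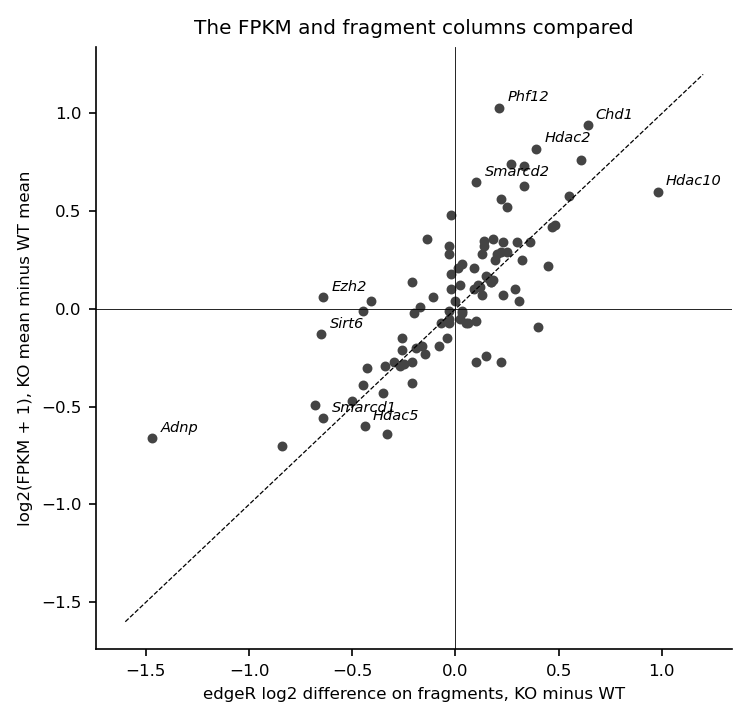
The log2 difference KO minus WT of the 95 tested chromatin genes from the fragments (edgeR, horizontal) and from log2(FPKM + 1) (vertical); the dashed line marks equal values. Phf12, Hdac2, Smarcd2 and Chd1 lie above the line, Hdac5 and Hdac10 below it, and Adnp lies far left at -1.47 against -0.66.

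The KO libraries differed more from each other than the WT libraries did. The median absolute log2 difference over the chromatin genes was 0.391 between the KO libraries and 0.158 between the WT libraries, beside 0.409 and 0.184 over all tested genes. KO replicate 1 was above KO replicate 2 for 65 of the 95 (68.4%, against 46.9% of all tested genes), and the median log2 difference between them was 0.197 (-0.047 over all). KO replicate 1 was the highest of the 4 libraries for 46 chromatin genes (48.4%, against 30.4% of all) and the lowest for 17 (17.9%, against 31.9%). KO replicate 2 was the highest for 19 (20%, against 35.2%) and the lowest for 35 (36.8%, against 26%). The summed level of the 100 rows was 2014 and 1581 FPKM in KO and 1589 and 1566 FPKM in WT, so KO replicate 1 stood alone. KO replicate 1 was also above KO replicate 2 for 71 of 95 in CPM (74.7%, against 51.7% of tested genes with a fragment fit) and for 73 with the FPKM totals made equal (76.8%, against 54.8%). By class, 8 of 8 H3K4 methyltransferases, 7 of 7 sirtuins, 9 of 11 BAF and PBAF subunits and 7 of 8 Chd genes were higher in KO replicate 1 than in KO replicate 2 on the FPKM scale, against 8, 6, 9 and 7 in CPM. Of the other classes, 6 of 7 acetyltransferases, 4 of 6 other Setd proteins and 4 of 5 H3K9 methyltransferases were higher in KO replicate 1 on FPKM. On that scale the rest were even or went the other way. Counts were 8 of 16 demethylases, 6 of 12 deacetylases, 3 of 6 DNA methylation enzymes and 2 of 4 PRC2 subunits. They were 1 of the pair Phf12 and Adnp and 0 of 3 ISWI and other SNF2 genes. In CPM these counts were 11, 7, 4, 2, 1 and 1, and with equal FPKM totals 11, 9, 4, 2, 1 and 0. Demethylases, deacetylases and DNA methylation enzymes were thus split evenly on unscaled FPKM, and their counts were higher on the other scales. The share of all genes was higher there too, at 51.7% in CPM and 54.8% with equal totals, against 46.9% on FPKM. The KO libraries were over 1 apart on the log2 scale for 11 chromatin genes (11.6%, against 12.5% of all). Among genes whose longest transcript has at least 50% GC, KO replicate 1 was the higher for 37 of 48 (77.1%), and among those under 50% GC for 28 of 46 (60.9%). Over all tested genes the shares were 54.9% and 39.2%. GC content moved with the difference between libraries in both groups, with Spearman's rho of 0.28 for KO replicate 1 minus KO replicate 2 and 0.28 for WT replicate 1 minus WT replicate 2 across 94 chromatin genes that share these libraries. Over all tested genes rho was 0.21 in KO and 0.23 in WT, and the part of GC content in the result was not tested.

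**Figure D5:**
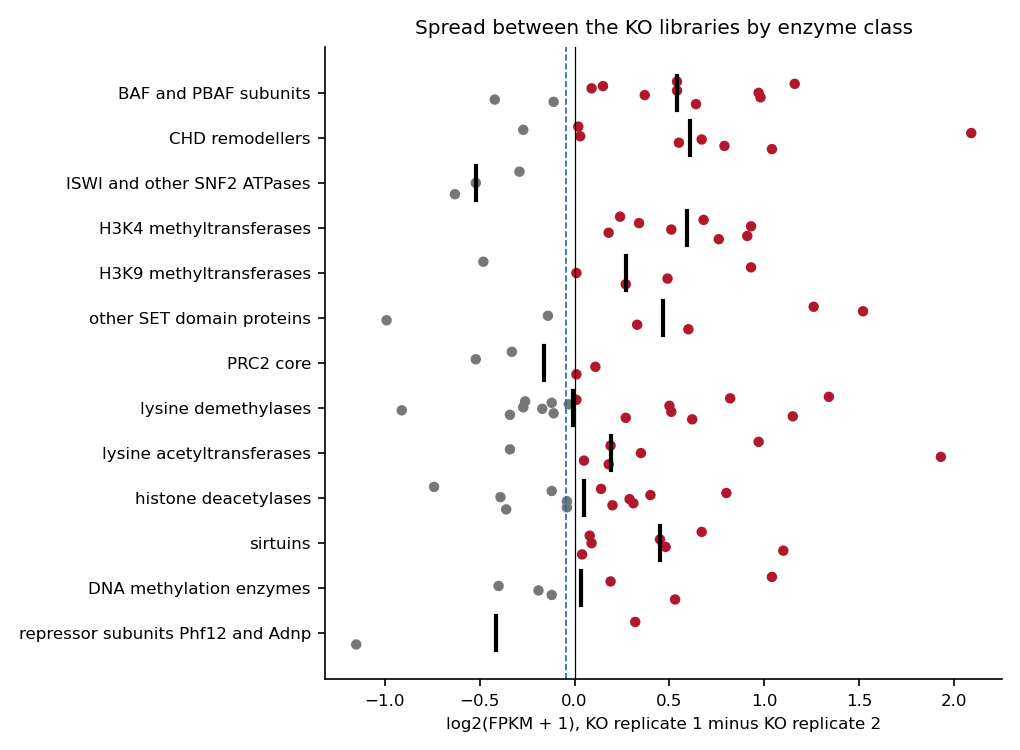
Difference in log2(FPKM + 1), KO replicate 1 minus KO replicate 2, for the 95 tested chromatin genes by enzyme class, red where KO replicate 1 is the higher; black bars are class medians and the dashed line is the median of all tested genes at -0.047. The points of H3K4 methyltransferases and sirtuins all lie above 0 and the 3 tested ISWI and other SNF2 genes all lie below 0.

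Left with 1 KO library, the fits called other genes, and the lone library was then assumed to vary like the WT libraries. Without KO replicate 2, edgeR called 17 of 96 chromatin genes, 15 of them higher and 2 lower in KO (17.7% called, against 11.3% of all genes, of which 6.11% were higher and 5.23% lower). The 15 were Chd1, Chd2, Chd3, Chd4, Chd7, Dnmt1, Kat5, Kmt2c, Kmt2e, Phf12, Setd2, Setd3, Smarca2, Smarcc2 and Smarce1, and the 2 lower were Adnp and Suz12. Without KO replicate 1, edgeR called 5 of 95, all lower (5.26%, against 0.968% of all genes called and 0.81% lower), namely Adnp, Ehmt2, Kat5, Kdm6b and Tet3. Kat5 was therefore called higher with KO replicate 1 as the lone KO library and lower with KO replicate 2, and Adnp was called lower with either. limma called Chd1 and Smarca2, both higher, without KO replicate 2 (1.21% of all genes called, 0.651% higher) and none without KO replicate 1 (0% of all genes).

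The partners of these enzymes were read from 13 lists of complex members and related enzymes, of which 191 genes were tested. In all, 111 were above and 80 below 0 in KO minus WT (58.1% above, against 54.1% of all tested genes), none had an adjusted limma p under 0.05, and 6 had an unadjusted p under 0.05 (3.14%, against 4.84% of all). Msl1, of the MSL acetyltransferase complex, and Cecr2, an ISWI partner, were on the higher side. Their log2 differences were 0.53 and 0.61 on FPKM, but 0.02 and 0.15 in edgeR. Pcgf1 and Cbx8 of PRC1, the NuRD subunit Cdk2ap1 and the INO80 subunit Ino80b were on the lower side. In edgeR these had -1.26, -1.03, -0.86 and -1.32 in that order. Cecr2 was at 25.9 and 30.6 FPKM in KO and 15.8 and 20.7 FPKM in WT, and Pcgf1 at 2.8 and 2.86 FPKM in KO and 6.01 and 7.71 FPKM in WT. Of 10 ISWI partners, which form complexes with Smarca5 or Smarca1, 9 were above 0, with a median log2 difference of 0.37. Smarca5 itself had -0.24 on FPKM, but 0.15 in edgeR and 0.07 in limma without KO replicate 1. Of 14 NuRD and HP1 partners, 4 were above and 10 below 0 with a median of -0.08. The PRC1 genes had 13 above and 7 below 0 with a median of 0.15, and the PRC2 accessory subunits 5 above and 1 below with a median of 0.18. Counts above and below 0 were 4 and 8 for CoREST and NCoR (median -0.10), 10 and 9 for COMPASS and MOF partners (0.03), 6 and 6 for BAF and PBAF subunits under other names (0.02) and 13 and 10 for INO80, SRCAP and TIP60 (0.03). They were 13 and 10 for other histone methyltransferases (0.05), 10 and 6 for other acetyltransferases and bromodomain readers (0.05), 5 and 2 for other demethylases (0.11) and 8 and 6 for readers and cofactors of DNA methylation (0.02).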

How the data were processed

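RNA was depleted of ribosomal RNA and made into stranded libraries, per the labels' protocols. Per the submitters' processing notes, cutadapt 1.9.3, HISAT2 2.0.4, Cufflinks and Cuffdiff 2.2.1 were used with build mm10; the annotation release and the counting of shared reads are not stated there. The table holds the authors' FPKM values and their estimated counts (expected counts that need not be whole), as deposited, per the file headers. Each count column was divided by its own step, which made 90.9 to 92.6% of values whole to within 0.05, and the recovered fragments were rounded.

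FPKM were tested as log2(FPKM + 1) with limma 3.58.1 (trend, Benjamini-Hochberg), on genes at 1 FPKM or more in at least 2 libraries, so fold changes of low genes are understated. The design was written for FPKM; because the table also holds counts, the fragments were tested with edgeR 4.0.16 (quasi-likelihood, TMM) and DESeq2 1.42.0. A call is an adjusted p under 0.05. With 2 libraries against 2, an exact permutation test of one value cannot go below p = 0.333 (two-sided). The tests were checked on simulated data.

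The members, classes, partner and marker lists were chosen with earlier results of these data known. Named are Adnp, Phf12, genes under an unadjusted p of 0.05 or called in any fit, and in each class the gene with the highest mean FPKM and the one with the smallest limma p, with paralogues. Other genes were named after their values were seen. Of the members, 29 share a table locus with another row, and 9 of 99 share over 5% of their sequence with another gene. Positions and exons come from GENCODE M21 (GRCm38), promoters from RefSeq (GRCm38.p6), matched for 80 of 99 symbols. CpG ratios are observed over expected. Replicate numbers were not treated as pairs.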

Additional observations from a re-analysis of the deposited data

How the results depend on the processing

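Settings were the pseudocount, the filter, 2 scalings, the variance model, the tool, shared loci, the replicate block and each library left out. For the 27 named genes other than Adnp and Phf12, 349 of 375 checks kept direction and call, 24 reversed and 2 became calls. Genes called were 0 in limma and in edgeR, 7 with DESeq2, 5 with edgeR without a filter, 2 with edgeR and the replicate block (shared numbers pair no samples here; deviations correlated at 0.026 over all tested genes), 0 to 134 in limma and 1 to 1390 in edgeR with a library left out. Chromatin genes called were 0 in limma, 1 with DESeq2 and with edgeR without a filter (Adnp), and, with a library left out, 0 to 2 in limma and 0 to 17 in edgeR (17 without KO replicate 2, 5 without KO replicate 1). Those under an unadjusted p of 0.05 were 5, and 3 with equal total FPKM, 2 with DESeq2, 7 with the replicate block and 0 to 26 with a library left out. Adnp was at -1.47 with DESeq2 (adjusted p = 0.00119), -1.48 with edgeR without a filter (0.0403), -1.24 to -0.09 in limma with a library left out (-0.66 with all 4, adjusted p = 0.948), and, summed with Gm20716 (chosen after the data were examined), 0.154 in limma, 0.058 in edgeR and 0.063 in DESeq2. Reversed on the fragment scale (edgeR, DESeq2, edgeR without a filter) were Suz12 (-0.21, -0.21, -0.21), Sirt4 (-0.026, -0.026, -0.025), Smarca5 (0.15, 0.15, 0.15), Ehmt1 (-0.03, -0.025, -0.029) and Kdm2a (-0.023, -0.018, -0.022), each cause not tested. With a library left out, Suz12 ran from -0.17 to 0.46, Smarca5 from -0.561 to 0.073, Kdm2a from -0.10 to 1.05, Chd3 from -0.17 to 0.38, Kmt2e from -0.39 to 0.54, Sirt2 from -0.75 to 0.36 and Tet3 from -0.81 to 0.23. Without KO replicate 2, limma called Chd1 (1.46) and Smarca2 (1.23). The count above 0 ran from 43 to 60 and the median from -0.028 to 0.176 by library left out. Median differences of H3K4 methyltransferases ran from -0.28 to 0.34 and of BAF and PBAF subunits from -0.14 to 0.41 by library left out. The shallowest library, WT replicate 1, held 4167116 fragments, and changes of 2-fold were mostly not recovered in simulation.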

Other observations

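As a group the chromatin genes were expressed at a median of 15.1 FPKM over the 4 libraries, against 10.4 FPKM for all tested genes, and 66 of the 95 tested (69.5%) were at 10 FPKM or more, against 51.3% of all. Their longest annotated transcripts had a median of 5173 bases, against 3387 for all tested genes, at a similar GC content of 50.3%, against 49.8%. Of the 80 promoter windows matched in RefSeq (GRCm38, 250 bases before to 50 after the start), 67 (83.8%) had a CpG observed over expected ratio of 0.6 or more, against 75.8% of the windows of tested genes. Each of 7 short motifs was searched on both strands, and a match is only a description of these windows. The GC box (GGGCGG) was in 68.8% of the chromatin genes' windows, against 67.2% of those of tested genes, and the CCAAT box (CCAAT) in 41.2%, against 38.5%. The NRF1 motif (TGCGCA) was in 21.2%, against 15.5%, and the ETS core (CCGGAAG) in 16.2%, against 19.7%. The E-box (CACGTG) was in 6.25%, against 10.6%, the TATA box (TATAAA) in 5%, against 6.29%, and the YY1 core (AAGATGGC) in 3.75%, against 5.18%. The Y-linked demethylase Kdm5d was measured in every library, at 4.59 and 5.67 FPKM in KO and 4.78 and 4.24 FPKM in WT, and its X-linked counterpart Kdm5c was at 20.1 and 22 FPKM in KO and 19.5 and 17.3 FPKM in WT.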
